A study of Rattus norvegicus with 18 samples.

Results

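Lysosome genes were taken as the rows of the WT and KO gene tables whose KEGG annotation, as the authors wrote it, holds the pathway named Lysosome. This gave 120 of the 32623 genes, and no expression value entered the choice. RNA-seq was performed on mesenchymal stem cells (MSCs) grown from bone marrow to passage 3, taken from SD (Sprague-Dawley) rats aged 2 months. The rats were wild type (WT) or lacked miR-337 (miR-337-/-, here KO). All cells, controls included, were first kept without serum for 8 h. They then stayed in serum starvation (SSt), were given fetal bovine serum (FBS), or underwent 10% cyclic mechanical stretch (CMS) for 24 h, although the study's methods state a shorter period. The 6 groups are therefore WT SSt, WT FBS, WT CMS, KO SSt, KO FBS and KO CMS, with 3 libraries each. Separate rats or cultures are not named for the 3 libraries within a group, so the p-values below reflect only how far these samples lie apart, which may be technical. Adherence to plastic, with no sort, is the selection that the methods give for the cultured cells.

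Lysosomes are acidic compartments in which proteins, glycans, lipids and nucleic acids are broken down by hydrolases. The acid is supplied by a proton pump, the V-ATPase, whose V0 sector lies in the membrane and whose V1 sector burns ATP in the cytosol. Most soluble hydrolases receive a mannose 6-phosphate tag in the Golgi, are bound there by 2 receptors, and are carried on by adaptors and clathrin. The number and content of lysosomes are set in large part by the MiT/TFE transcription factors (Tfeb, Tfe3, Mitf and Tfec), which bind a short promoter sequence called the CLEAR element. In bone, osteoclasts and macrophages hold many lysosomes, and MSCs use them to clear collagen fragments and damaged organelles.

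The libraries held between 56083000 and 71847969 counts, and 16703 to 17073 genes had a count in a library. Of the markers of marrow MSCs, Lepr, which the study uses as a marker of these cells both in marrow and in culture, was at or near 0 FPKM in all 18 libraries, while Thy1, Pdgfra, Pdgfrb and Col1a1 were measured in each. The study measured LepR on cultured cells as protein, by flow cytometry, and reports nearly all as positive, whereas the values here are of RNA. FPKM, as the authors computed it, scales a gene's count to its length and to the depth of the library. Macrophage and monocyte markers were also measured: 14 of 15 passed the filter for testing and Cd163 was near 0. Their levels ran from Lyz2, at 1481 to 5102 FPKM over the 18 libraries, to Adgre1 at 2.84 to 3.2 FPKM in KO SSt, and C1qa at 3.37 to 4.23 and C1qb at 1.16 to 2.25 FPKM in KO CMS. Mir337 had no count in any of the 18 libraries, WT included, so these tables give no check of the knockout. KO FBS replicate 1 stood apart, correlating on average at 0.975 with the other KO FBS libraries against 0.978 with those of KO CMS. Values without it are given beside some of the lysosome genes that it moved. No member's change moved by over 1.5 times without it. In KO FBS over SSt 3 calls were gained and 0 lost, in KO CMS over FBS 15 and 1, and in the FBS interaction 4 and 3. Among those gained were Sort1 (-0.59 log2) and Slc11a2 (0.41) in KO CMS over FBS and Lipa (0.29) in the FBS interaction.

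The mature strands of miR-337, which KO cells lack, are shown because they define the genotype, with bases 2 to 8 (the seed) in capitals, from RefSeq (GRCr8, chr6:134321170-134321223, plus strand).
rno-miR-337-5p: cGGCGUCAugcaggaguugau
rno-miR-337-3p: uUCAGCUCcuauaugaugccuuu

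Promoter windows from RefSeq (GRCr8), which run from 250 bases before to 50 bases after a gene's start, were matched by symbol for 97 of the 120 lysosome genes and searched for TCACGTGA, the core of the CLEAR element, and for CACGTG, the E-box inside it. Both sequences read the same on either strand, and every TCACGTGA is also a CACGTG. TCACGTGA occurred in 10 of the 97 windows, which is 10.3%, against 0.867% of all 27457 windows. CACGTG occurred in 18, or 18.6%, against 6.65% of all windows. The 27457 windows are not limited to genes with enough reads to be tested here, as most of the lysosome genes were, so the sets are unlike. The sites are shown because they are the sequence by which MiT/TFE factors are known to bind lysosome genes. Each line gives a site in capitals with its flanks, 5′ to 3′ on the gene's strand. Ctsd, Cln3 and Igf2r lie on chromosome 1 (Ctsd at chr1:206968809-206968848, minus strand, Cln3 at chr1:190597945-190597984, minus strand, and the first Igf2r site at chr1:50526736-50526775, plus strand).
Ctsd: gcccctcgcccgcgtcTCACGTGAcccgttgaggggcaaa
Galc: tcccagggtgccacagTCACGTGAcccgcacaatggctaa
Sumf1: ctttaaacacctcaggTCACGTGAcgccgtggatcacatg
Lamp1, first site: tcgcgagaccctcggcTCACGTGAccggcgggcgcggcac
Lamp1, second site: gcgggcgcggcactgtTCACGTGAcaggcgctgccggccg
Cd164: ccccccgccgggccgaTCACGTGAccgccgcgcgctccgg
Mcoln1: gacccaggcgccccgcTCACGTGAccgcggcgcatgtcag
Cln3: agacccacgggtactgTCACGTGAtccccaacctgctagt
Atp6v0d1: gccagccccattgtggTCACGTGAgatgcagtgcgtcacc
Igf2r, first site: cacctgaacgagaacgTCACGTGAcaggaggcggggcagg
Igf2r, second site: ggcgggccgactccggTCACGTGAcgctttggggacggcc
Gnptg: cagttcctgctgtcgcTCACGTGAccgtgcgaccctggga
These 10 genes span a protease, a glycosidase, the activator of sulfatases, membrane proteins, a pump subunit, a mannose 6-phosphate receptor and a subunit of the tagging enzyme. The sites lie close to the gene starts, from 126 bases before in Igf2r to 3 bases after in Mcoln1, counted at the first base of the site. A match is a description of these letters and not evidence that a factor binds there.

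Lysosome genes took a larger share of the transcriptome in FBS and CMS than in SSt, in both genotypes. In WT they made up 2.75, 2.71 and 2.73% of all FPKM in the 3 SSt libraries, 3.65, 3.72 and 3.67% in FBS, and 3.76, 3.76 and 3.74% in CMS. In KO the share was 2.02, 1.93 and 1.93% in SSt, 3.08, 3.18 and 3.19% in FBS, and 3.40, 3.46 and 3.34% in CMS. No FBS or CMS library overlapped an SSt library of its genotype, and each KO group lay below the WT group of the same treatment. The summed FPKM of the 15 macrophage and monocyte markers was also higher in FBS and CMS than in SSt of the same genotype: 3941 to 4082 in WT SSt, 6496 to 6876 in WT FBS, 6250 to 6582 in WT CMS, 2379 to 2481 in KO SSt, 4438 to 5282 in KO FBS and 4221 to 4588 in KO CMS. Between FBS and CMS the sum and the share went opposite ways on average, the sum from 6734 to 6406 FPKM in WT and from 4982 to 4430 in KO, while the share was higher in CMS. Lyz2 made up 55.8 to 76.0% of the sum. Without Lyz2, left out after its values were seen, the sum was 1715 to 1724 FPKM in WT SSt, 1720 to 1792 in WT FBS, 1531 to 1584 in WT CMS, 898 to 976 in KO SSt, 1608 to 1963 in KO FBS and 1322 to 1515 in KO CMS, so in WT it overlapped between SSt and FBS and lay lower in CMS. Of the 14 tested markers, 7 rose and 2 fell in WT FBS, 6 and 4 in WT CMS, 10 and 2 in KO FBS, and 8 and 5 in KO CMS. Of all tested genes, 30.3 to 34.6% rose and 29.5 to 32.7% fell in these comparisons. In WT, Ptprc, Csf1r, Lyz2, Spi1, Tyrobp and Fcer1g rose in both FBS and CMS, while Cd14 and Adgre1 fell in both. Cd14, a receptor of monocytes, was at 555 to 560 FPKM in WT SSt, 201 to 219 in WT FBS and 151 to 187 in WT CMS. In KO it rose in FBS by 0.70 log2 (adjusted p = 0.0197, edgeR), and its value of 0.39 in CMS did not pass. The KO FBS libraries were at 327, 215 and 195 FPKM, with replicate 1 far above the others, and those of KO SSt at 145 to 179. The part of macrophages in the lysosome values was not tested, and in bulk RNA fewer cells of a type and less RNA per cell cannot be told apart.

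**Figure D1:**
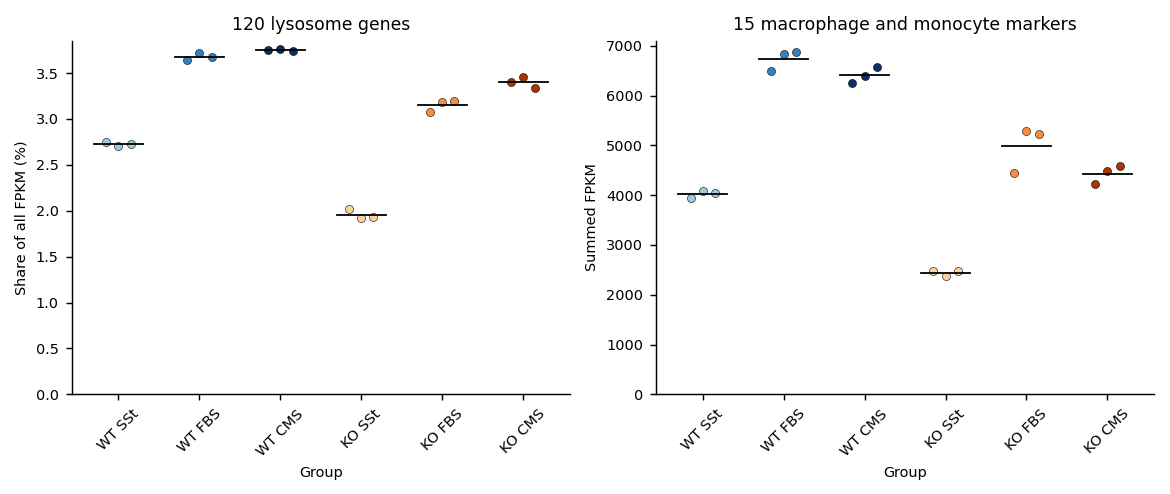
Share of all FPKM taken by the 120 lysosome genes (left, %) and summed FPKM of 15 macrophage and monocyte markers (right) in each of the 3 libraries of each group, with a bar at the mean. Both are lowest in KO SSt, where the share is 1.93 to 2.02%, and higher in FBS and CMS than in SSt of the same genotype.

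Gene by gene, most lysosome genes that could be tested rose against SSt. Genes with at least 1 FPKM in at least 3 libraries of a fit were tested with edgeR's quasi-likelihood test, and a gene passed at a Benjamini-Hochberg adjusted p under 0.05 over all genes, whatever its fold. In WT FBS, 77 of 105 tested lysosome genes rose and 17 fell, beside 33.7% of all 12916 tested genes higher and 32.7% lower. In WT CMS, 77 rose and 11 fell, beside 34.6% and 32.3% of all genes. In KO FBS, 80 of 105 rose and 4 fell, beside 30.3% and 29.5% of all 12888 genes. In KO CMS, 81 rose and 9 fell, beside 30.8% and 30.7%. These shares of all genes apply to every count of a class or list against SSt below. Without KO FBS replicate 1 the KO FBS counts were 83 and 4, and without KO SSt replicate 1 the genes lower in KO CMS numbered 5. The median log2 fold change of the lysosome genes was 0.44 in WT FBS, 0.47 in WT CMS, 0.64 in KO FBS and 0.66 in KO CMS, where the median of all tested genes was between 0.00 and 0.02. The FBS and CMS comparisons of a genotype share its SSt libraries. Most changes were under 2-fold: 13 and 14 genes rose by at least 2-fold in WT FBS and WT CMS, and 23 and 31 in KO FBS and KO CMS.

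**Figure D2:**
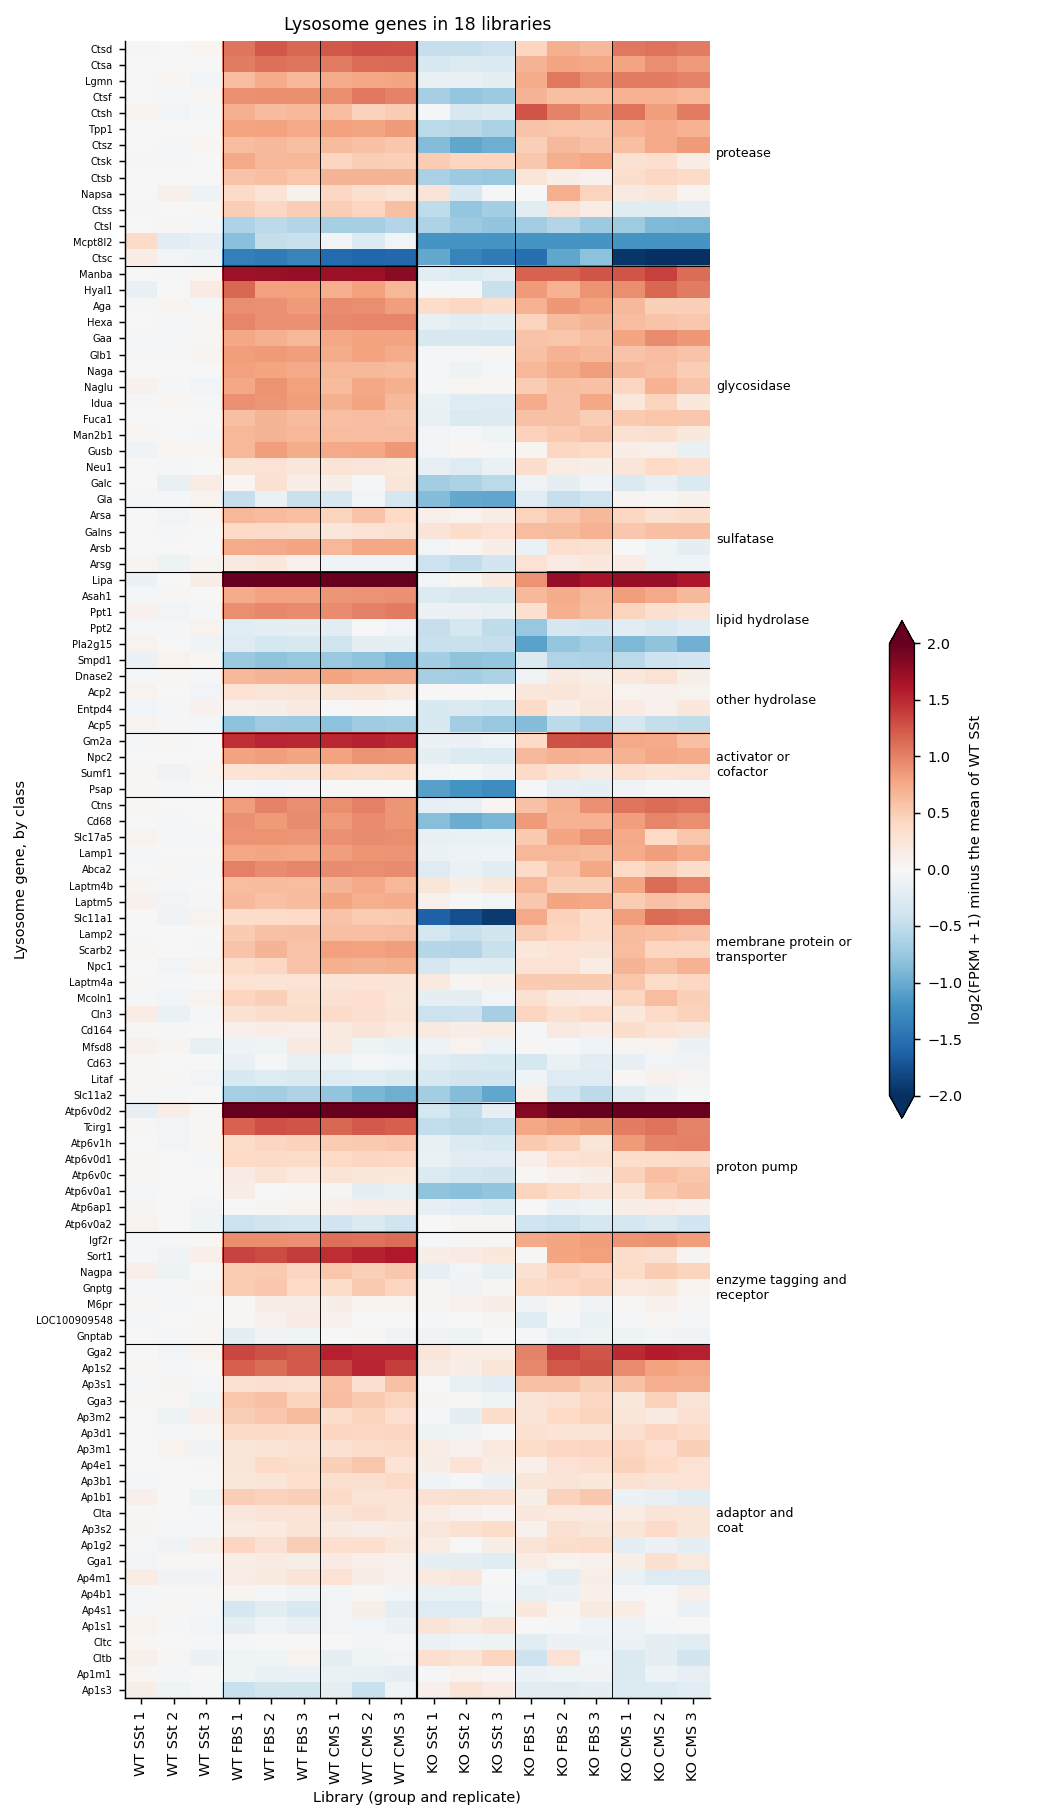
Level of 103 lysosome genes in the 18 libraries, as log2(FPKM + 1) minus the mean of WT SSt, by class (rows) and library (columns). Red is higher and blue lower than WT SSt. FBS and CMS columns are red for most hydrolases, while KO SSt is blue for most proteases, Psap and Slc11a1.

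By class, in FBS, where 33.7% of all genes rose in WT and 30.3% in KO, the counts were as follows. Of the hydrolases, 54 genes in all, 36 of 46 tested rose in WT FBS and 38 of 45 in KO FBS, with medians of 0.64 and 0.78 log2. Membrane proteins and transporters, 21 genes, rose in 15 of 19 tested in WT FBS and in 16 of 19 in KO FBS. The proton pump subunits of the KEGG list, 9 genes, rose in 5 of 8 and in 7 of 8. The adaptor and clathrin coat genes, 24 in number, had a median of 0.24 in both FBS comparisons, and 14 of 21 rose in WT and 11 of 22 in KO.

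**Figure D3:**
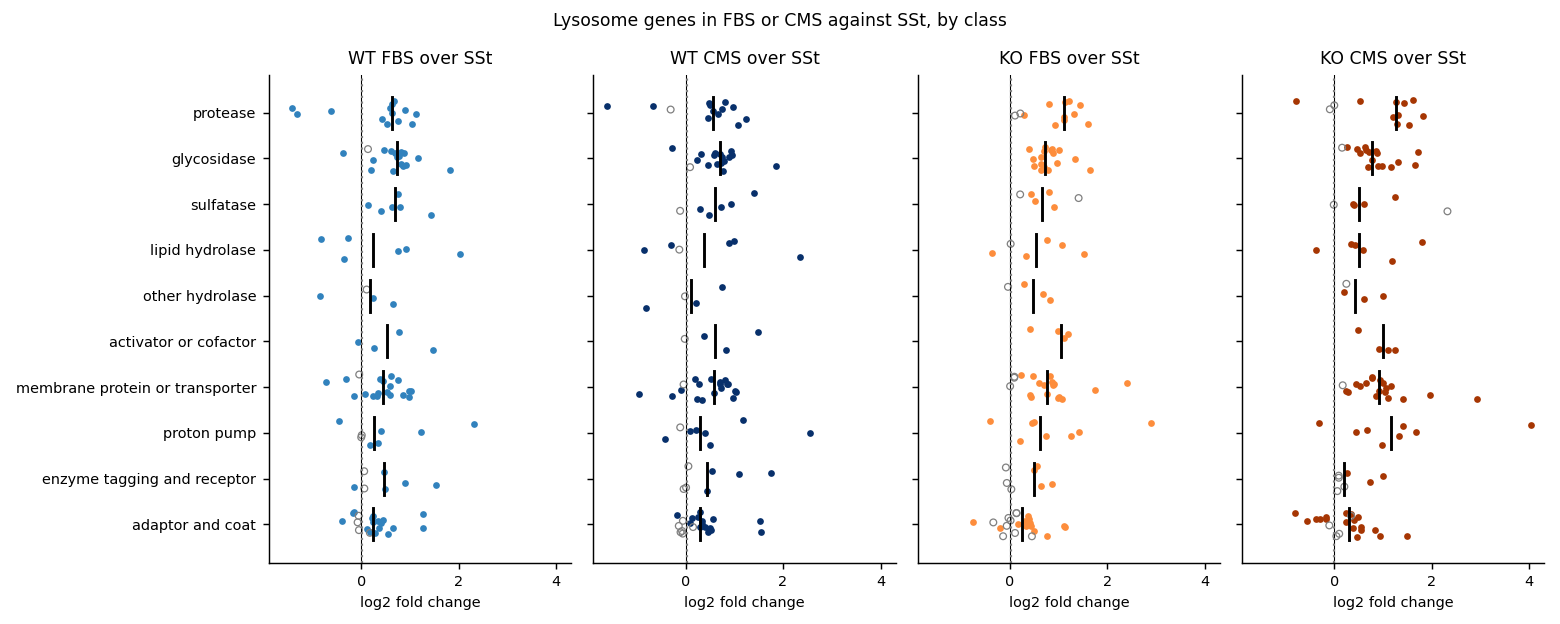
Log2 fold change of each tested lysosome gene against SSt, by class, in 4 comparisons. Filled points passed an adjusted p of 0.05, open points did not, black bars are class medians and the dotted line is the median of all tested genes, which lies at 0.00 to 0.02. Glycosidases lie to the right almost without exception, while proteases and lipid hydrolases spread to both sides in WT.

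The proteases are mainly cathepsins, which cut proteins at acid pH, and 10 of 13 tested rose in WT FBS, 10 in WT CMS, 10 of 12 in KO FBS and 9 in KO CMS. Cathepsin B (Ctsb), a cysteine protease, and cathepsin D (Ctsd), an aspartic protease, were the most abundant lysosome genes of WT FBS by FPKM. Ctsd was at 998, 1024 and 1055 FPKM in WT SSt, 2164, 2423 and 2268 in WT FBS, and 2432, 2495 and 2475 in WT CMS. The KO libraries were at 744, 743 and 761 in SSt, 1385, 1679 and 1606 in FBS, and 2130, 2189 and 2104 in CMS. Neither genotype's SSt libraries reached its FBS or CMS libraries, with log2 fold changes of 1.12 ± 0.04 (SE, n = 3 and 3, adjusted p = 4e-09, edgeR) and 1.24 ± 0.04 (adjusted p = 2e-09) in WT FBS and CMS, and of 1.11 ± 0.06 (adjusted p = 1.38e-06) and 1.62 ± 0.06 (adjusted p = 1.71e-07) in KO. Ctsb rose by 0.54 and 0.66 log2 in WT FBS and CMS, from 2060 FPKM, and by 0.93 and 1.21 in KO, from 1258 FPKM. Cathepsin Z (Ctsz), a carboxypeptidase, rose 1.47-fold in WT CMS and 3.54-fold in KO CMS. Legumain (Lgmn), cathepsin A (Ctsa), cathepsin H (Ctsh), cathepsin F (Ctsf) and Tpp1 rose in all 4 comparisons, by 0.51 to 1.54 log2.

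Cathepsin L (Ctsl) and cathepsin C (Ctsc), both cysteine proteases, went the other way in WT. Ctsl, known for collagen and elastin breakdown, was at 1594, 1623 and 1566 FPKM in WT SSt, 1041, 1106 and 1061 in WT FBS, and 1009, 1011 and 1058 in WT CMS. Its KO values were 1034, 961 and 918 in SSt, 983, 1060 and 961 in FBS, and 976, 867 and 857 in CMS, so the 3 KO groups overlapped. It fell by 0.61 and 0.66 log2 in WT (adjusted p = 4.06e-08 and 2.26e-08) and did not pass in KO (log2 fold change 0.10 and 0.00, adjusted p = 0.228 and 0.998). Ctsc, which activates the serine proteases of granules, was at 265, 232 and 227 FPKM in WT SSt, 93.1, 90.3 and 94.5 in FBS, and 80.9, 79.4 and 80.5 in CMS. KO libraries stood at 118, 94.5 and 89.3 in SSt, 84.2, 117 and 136 in FBS, and 61.5, 52.9 and 47.9 in CMS. The fall in WT, by 1.42 ± 0.05 and 1.61 ± 0.05 log2, was the deepest of any lysosome gene in either WT comparison, and in KO Ctsc fell in CMS (by 0.79 ± 0.17, adjusted p = 0.00335) with overlapping libraries in FBS, where the value was 0.21 (adjusted p = 0.31) and, without KO FBS replicate 1, 0.37 (adjusted p = 0.0456). Cathepsin K (Ctsk), the collagenase of osteoclasts, rose in WT by 0.67 and 0.45 log2 and in KO FBS by 0.29, with a log2 difference of -0.09 in KO CMS that did not pass. Cathepsin S (Ctss), which trims the invariant chain of antigen presentation, rose in all 4, by 0.43 to 0.80 log2.

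Glycosidases, which take sugars off glycoproteins and glycolipids, moved largely in 1 direction: 15 of 17 rose and 1 fell in WT FBS and in WT CMS, all 17 rose in KO FBS and 16 in KO CMS. Manba, β-mannosidase, was at 7.53, 7.45 and 7.77 FPKM in WT SSt, 26.9, 27.6 and 27.8 in FBS, and 27.3, 27.0 and 29.1 in CMS, and rose 3.52-fold and 3.60-fold. The KO libraries were at 6.41, 6.09 and 6.42 in SSt, 18.5, 18.5 and 19.5 in FBS, and 19.4, 21.1 and 17.5 in CMS, and rose 3.11-fold and 3.31-fold. Its groups did not overlap with SSt in either genotype. Hexa, which takes part in breaking down gangliosides, rose by 0.91 and 0.96 log2 in WT and by 0.84 and 0.88 in KO. Acid α-glucosidase (Gaa), which digests glycogen, rose by 0.69 and 0.78 log2 in WT and by 0.97 and 1.31 in KO. Gla, α-galactosidase A, was the glycosidase that fell in WT, by 0.38 and 0.27 log2 (adjusted p = 0.00818 and 0.042), and it rose in KO by 0.70 and 1.17.

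Of the 6 sulfatases, which remove sulfate from glycosaminoglycans and sulfatides, 6 rose in WT FBS and 5 in WT CMS, and 4 in each KO comparison. Arsb, arylsulfatase B, rose by 0.75 and 0.73 log2 in WT, and its KO values of 0.21 and -0.01 did not pass.

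Lipid hydrolases divided into members that rose and members that fell. Lipa, the acid lipase that frees cholesterol and fatty acids from lipoproteins, had the largest rise of any hydrolase in WT. It was at 24.3, 26.3 and 28.4 FPKM in WT SSt, 109, 110 and 109 in FBS, and 136, 132 and 139 in CMS. Its KO values were 25.3, 26.9 and 29.8 in SSt, 49.7, 91.7 and 84.6 in FBS, and 89.96, 90.2 and 82.9 in CMS. The rise was 4.07-fold and 5.07-fold in WT and 2.86-fold and 3.46-fold in KO, and KO FBS replicate 1 lay far below the other 2 KO FBS libraries. Without that library the KO FBS log2 fold change was 1.73 in place of 1.51. Ppt1, which removes palmitate from proteins, rose by 0.92 and 0.99 log2 in WT and by 0.76 and 0.59 in KO, and acid ceramidase (Asah1) by 0.76 and 0.89 in WT and by 1.07 and 1.18 in KO. Smpd1, the acid sphingomyelinase, was at 102, 116 and 114 FPKM in WT SSt, 65.6, 62.8 and 64.9 in FBS, and 65.5, 62.8 and 58.0 in CMS. KO libraries stood at 68.8, 62.7 and 64.3 in SSt, 90.4, 72.5 and 71.8 in FBS, and 75.4, 82.2 and 84.5 in CMS. It fell by 0.81 and 0.86 log2 in WT (adjusted p = 8.52e-07 and 5.71e-07) and rose by 0.32 and 0.42 in KO (adjusted p = 0.0253 and 0.00761). Without KO FBS replicate 1, its highest KO FBS library, the KO FBS value was 0.19 and still passed. The KO FBS rise did not pass without KO SSt replicate 2 or without KO SSt replicate 3. Pla2g15, a phospholipase, fell in all 4 comparisons, by 0.31 to 0.37 log2.

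Among the other hydrolases, Dnase2, which digests DNA of engulfed cells, rose 1.57-fold to 2.01-fold in the 4 comparisons, and the phosphatase Acp2 by 0.20 to 0.29 log2. Acp5, the tartrate-resistant acid phosphatase of osteoclasts and macrophages, fell by 0.84 and 0.82 log2 in WT and did not pass in KO (-0.04 and 0.25). Its level was low, 21.1 to 22.8 FPKM in WT SSt and 12.4 to 17.4 in KO SSt. Of 8 osteoclast markers, 5 were tested, of which 3 rose and 2 fell in each WT comparison and 4 rose and 1 fell in each KO comparison. Calcr was at 0 FPKM in all 18 libraries. Ocstamp and Dcstamp, of cell fusion, and Nfatc1 rose in all 4 comparisons, whereas Itgb3 fell in all 4. In WT, Ocstamp was at 0.0757 to 0.176 FPKM in SSt and 2.19 to 2.69 in FBS. Dcstamp was at 0.745 to 2.27 FPKM in WT SSt and 5.95 to 6.7 in WT FBS. In KO FBS replicate 1, Ocstamp was at 0.299 FPKM, within the KO SSt values of 0.255 to 0.38. Itgb3 fell by 1.69 and 1.29 log2 in WT and by 1.39 and 1.26 in KO. Its level was 13.1 to 13.3 FPKM in WT SSt and 4.16 to 4.21 in WT FBS. Mmp9, a gelatinase, fell in WT and rose in KO, at 282 to 323 FPKM in WT SSt, 71.0 to 72.5 in WT FBS, 24.7 to 36.2 in KO SSt and 94.0 to 362 in KO FBS. The 362 was KO FBS replicate 1, and the others were at 117 and 94.0. Their part in the lysosome values was not tested.

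Psap encodes prosaposin, the precursor of the 4 saposins that hand sphingolipids to their hydrolases. It was at 1666, 1575 and 1637 FPKM in WT SSt, 1582, 1569 and 1592 in FBS, and 1634, 1632 and 1639 in CMS. The KO libraries were at 765, 707 and 689 in SSt, 1591, 1447 and 1432 in FBS, and 1542, 1599 and 1577 in CMS. KO SSt thus lay below every other group, and no library of the other 5 groups was under 1432. In KO Psap rose 2.16-fold and 2.36-fold (adjusted p = 3.37e-06 and 1.44e-06), whereas in WT the FBS difference was -0.08 log2 (adjusted p = 0.009) with overlapping libraries, which did not pass with upper-quartile scaling, and the CMS difference was -0.02 (adjusted p = 0.49). Of the other activators, Npc2, which carries cholesterol, rose by 0.78 and 0.84 log2 in WT and by 0.99 and 1.10 in KO. Gm2a, the GM2 activator, rose 2.76-fold and 2.82-fold in WT and 2.28-fold and 1.88-fold in KO. KO FBS replicate 1 was at 181 FPKM for Gm2a against 332 and 335 in the others, and without it the KO FBS rise was 2.67-fold. Sumf1, which activates sulfatases, rose by 0.26 to 0.48 log2.

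**Figure D4:**
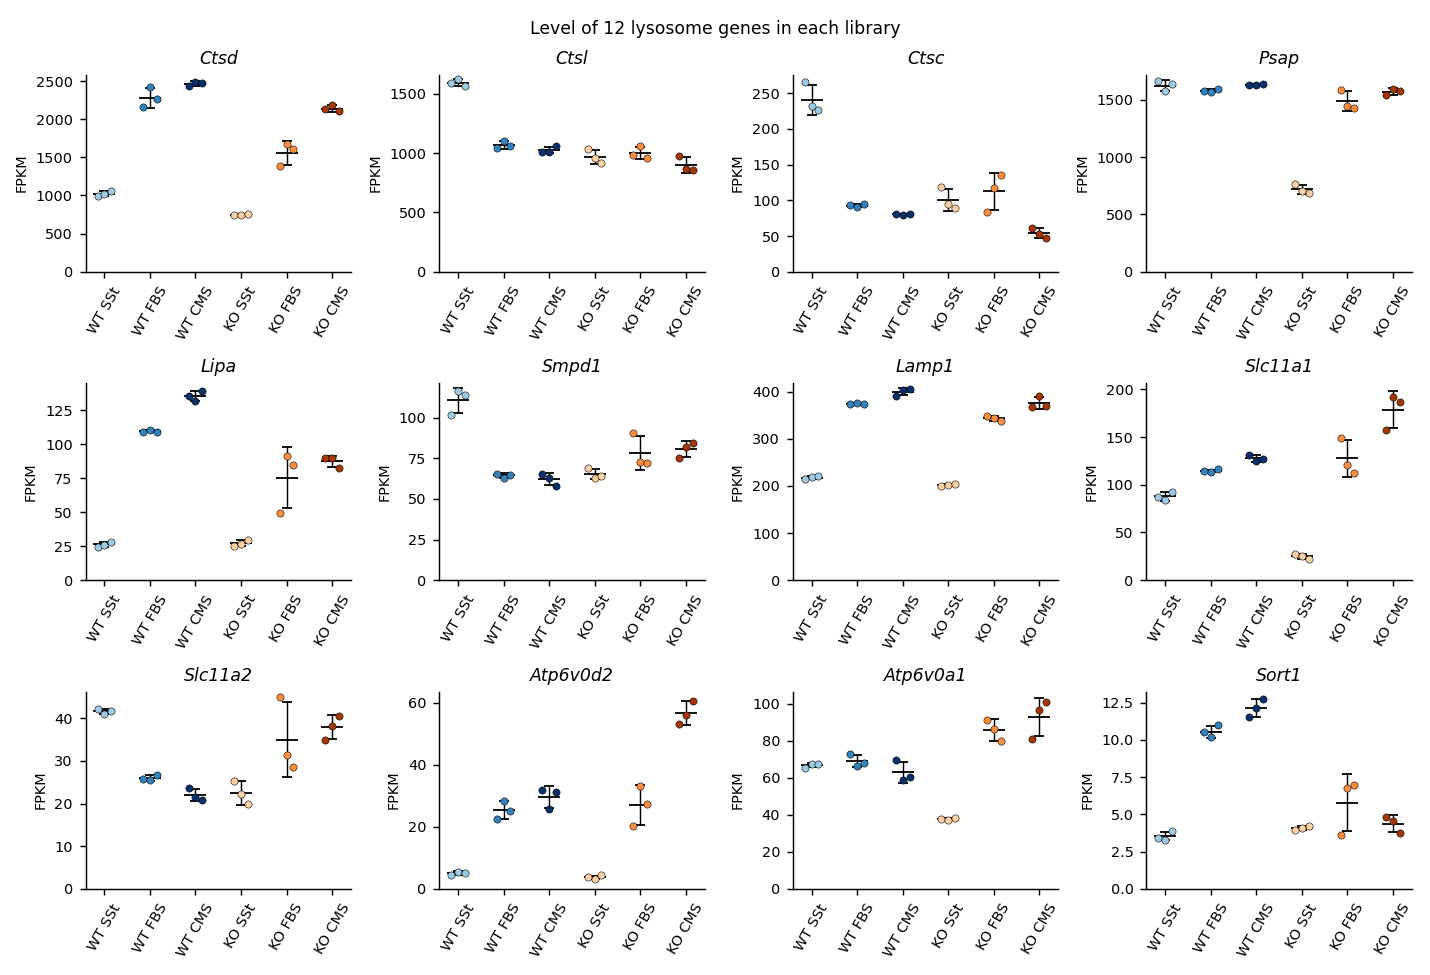
FPKM of 12 lysosome genes in each of the 18 libraries, with the mean and SD of 3 libraries per group. Ctsd, Lipa, Lamp1 and Atp6v0d2 are higher in FBS and CMS than in SSt in both genotypes, Ctsl and Smpd1 are lower in WT FBS and WT CMS than in WT SSt, and Psap, Slc11a1 and Atp6v0a1 are lowest in KO SSt.

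The membrane proteins shield the lysosomal membrane, move metabolites out of the lumen and carry ions. Lamp1, the most used lysosome marker, was at 214, 219 and 220 FPKM in WT SSt, 373, 377 and 373 in FBS, and 391, 403 and 406 in CMS. Its KO values were 200, 202 and 204 in SSt, 347, 344 and 338 in FBS, and 366, 391 and 370 in CMS. The replicates were tight, and the rises were 1.68-fold and 1.80-fold in WT and 1.77-fold and 2.00-fold in KO. Lamp2, which also takes part in chaperone-mediated autophagy, rose by 0.54 and 0.58 log2 in WT and by 0.88 and 1.11 in KO. Cd63, a tetraspanin of late endosomes, was the most abundant of the class by FPKM and changed little: it fell by 0.15 and 0.09 log2 in WT, the latter not passing with upper-quartile scaling or without any of 4 single libraries, and rose by 0.28 in KO CMS, with 0.09 in KO FBS not passing. Cd68, macrosialin, which macrophages hold in large amounts, rose 1.82-fold and 1.83-fold in WT and 3.35-fold and 3.88-fold in KO. Scarb2, a major protein of the lysosomal membrane, rose by 0.58 to 1.16 log2 in the 4 comparisons, Npc1, which exports cholesterol, by 0.44 to 1.06, and Mcoln1, a calcium channel, by 0.28 to 0.78. Laptm5, of blood cells, rose by 0.58 to 0.77 log2.

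The 2 divalent metal transporters of the list moved apart in WT and together in KO. Slc11a1 (NRAMP1) pumps iron and manganese out of the phagosomes of macrophages. It was at 87.5, 83.6 and 92.6 FPKM in WT SSt, 114, 113 and 116 in FBS, and 132, 125 and 127 in CMS. The KO groups were at 27.9, 25.4 and 22.5 in SSt, 149, 121 and 113 in FBS, and 157, 192 and 187 in CMS. It rose 1.27-fold and 1.43-fold in WT and 5.28-fold (4.76-fold without KO FBS replicate 1) and 7.64-fold in KO. Slc11a2 (DMT1), which brings iron into the cytosol, was at 42.2, 41.1 and 41.7 FPKM in WT SSt, 25.9, 25.5 and 26.8 in FBS, and 23.7, 21.6 and 20.7 in CMS. For KO the values were 25.4, 22.3 and 19.9 in SSt, 45.02, 31.3 and 28.7 in FBS, and 34.9, 38.2 and 40.6 in CMS. It fell by 0.71 and 0.95 log2 in WT (adjusted p = 4.3e-07 and 5.45e-08) and rose by 0.70 and 0.86 in KO (adjusted p = 0.00804 and 0.00258). Without KO FBS replicate 1, its highest KO FBS library, the KO FBS value was 0.45 and still passed.

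Of the 8 tested proton pump genes, 5 rose in WT FBS, 6 in WT CMS and 7 in each KO comparison, and 1 fell in each. Atp6v0d2, the d isoform of osteoclasts and macrophages, was at 4.33, 5.54 and 5.07 FPKM in WT SSt, 22.7, 28.5 and 25.0 in FBS, and 32.0, 25.6 and 31.4 in CMS. In KO, FPKM was 3.66, 3.26 and 4.30 in SSt, 20.2, 33.1 and 27.5 in FBS, and 53.2, 56.03 and 60.8 in CMS. These were the largest rises of any lysosome gene, 4.96-fold and 5.84-fold in WT and 7.47-fold (8.33-fold without KO FBS replicate 1) and 16.3-fold in KO. The common isoform, Atp6v0d1, rose by 0.35 and 0.39 log2 in WT and by 0.49 and 0.68 in KO. Tcirg1, the a3 subunit, rose by 1.22 and 1.18 in WT and by 1.42 and 1.67 in KO. The a1 subunit, Atp6v0a1, was at 65.5, 67.4 and 67.4 FPKM in WT SSt, 72.6, 66.5 and 67.8 in FBS, and 69.5, 58.9 and 60.4 in CMS, with overlap throughout. The KO groups were at 37.9, 36.9 and 38.1 in SSt, 91.2, 86.4 and 79.6 in FBS, and 81.1, 96.8 and 101 in CMS. It rose 2.38-fold and 2.66-fold in KO and did not pass in WT (0.01 and -0.11 log2, adjusted p = 0.879 and 0.133). The a2 subunit, Atp6v0a2, was the pump subunit that fell, by 0.31 to 0.46 log2 in all 4 comparisons. Atp6v0c, the proteolipid of the rotor, rose by 0.18 and 0.21 log2 in WT and by 0.46 and 0.98 in KO, and the accessory Atp6ap1 by 0.10 in WT CMS, 0.21 in KO FBS and 0.45 in KO CMS.

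The V1 sector lies outside the KEGG list apart from Atp6v1h, and was examined as a separate list of 11 genes, Atp6v1h included, of which 9 were tested. All 9 rose in WT FBS, WT CMS and KO FBS and 8 rose in KO CMS, with medians of 0.40, 0.57, 0.72 and 1.04 log2. In the same comparisons, 33.7, 34.6, 30.3 and 30.8% of all tested genes rose. Atp6v1a, the catalytic subunit, was at 49.8 to 53.8 FPKM in WT SSt, 100 to 104 in FBS and 113 to 116 in CMS, and at 39.3 to 41.7, 81.5 to 88.3 and 111 to 117 in the KO groups. Atp6v1b1 and Atp6v1g2, whose known sites are the kidney and the nervous system, stayed under 1 FPKM.

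Among the genes for tagging and receptors, Igf2r, the large mannose 6-phosphate receptor, was at 94.2, 94.0 and 97.7 FPKM in WT SSt, 182, 183 and 180 in FBS, and 206, 204 and 208 in CMS. For KO the values were 92.6, 96.6 and 96.7 in SSt, 161, 164 and 171 in FBS, and 177, 178 and 171 in CMS. It rose 1.86-fold and 2.12-fold in WT and 1.81-fold and 1.99-fold in KO. M6pr, the small receptor, and LOC100909548, its near copy, between which reads may be split, passed in none of the 4 comparisons (-0.08 to 0.09 log2). Gnptg and Nagpa, which take part in making the tag, rose in all 4, while Gnptab, the catalytic subunit, fell in WT FBS by 0.15 log2 and did not pass elsewhere. Sort1, sortilin, which sorts hydrolases without the tag, was at 3.43, 3.31 and 3.85 FPKM in WT SSt, 10.5, 10.2 and 10.98 in FBS, and 11.5, 12.2 and 12.8 in CMS. In KO, FPKM was 3.93, 4.06 and 4.25 in SSt, 3.60, 6.79 and 6.99 in FBS, and 4.8, 4.59 and 3.72 in CMS. It rose 2.92-fold and 3.38-fold in WT. In KO FBS it rose by 0.56 ± 0.21 log2 (adjusted p = 0.0464), with KO FBS replicate 1 below all KO SSt libraries and a value of 0.80 without it, and in KO CMS the value of 0.21 did not pass.

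Of the coat genes, 14 of 21 tested rose and 3 fell in WT FBS, 14 and 1 in WT CMS, 11 and 2 of 22 in KO FBS, and 12 and 6 in KO CMS. The 6 of 22 that fell in KO CMS were near the share of all genes that fell there, 30.7%. Clta, a clathrin light chain, rose by 0.17 to 0.26 log2, and Cltc, the heavy chain, did not pass in any of the 4 comparisons (-0.06 to 0.04). Gga2, an adaptor that binds the receptors' tails, rose 2.42-fold and 2.90-fold in WT and 2.17-fold and 2.83-fold in KO, and Ap1s2, a small AP-1 chain, by 1.28 and 1.54 log2 in WT and by 1.14 and 0.84 in KO. Gga2 was at 24.2 to 26.4 FPKM in WT SSt, 60.6 to 65.2 in FBS and 73.4 to 76.3 in CMS. Ap1b1 rose in WT by 0.45 and 0.29 log2 and fell in KO CMS by 0.37. Cltb fell in KO CMS by 0.55 and Ap1s1 in KO FBS by 0.21 and in KO CMS by 0.17.

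Transcripts of most MiT/TFE factors, and of genes that control them, rose as well. Of 14 MiT/TFE factors and genes that control them, 13 were tested, and 12 rose in WT FBS and WT CMS and all 13 in KO FBS and KO CMS. Of all tested genes, 33.7% and 34.6% rose in WT FBS and WT CMS, and 30.3% and 30.8% in KO FBS and KO CMS. Tfeb was at 3.94, 4.81 and 4.35 FPKM in WT SSt, 13.8, 15.9 and 14.7 in FBS, and 15.8, 15.4 and 17.6 in CMS. The KO groups were at 4.35, 4.58 and 4.51 in SSt, 7.82, 11.3 and 12.1 in FBS, and 15.4, 13.7 and 13.6 in CMS. It rose by 1.72 and 1.87 log2 in WT and by 1.27 and 1.78 in KO (adjusted p from 3.58e-08 to 5.9e-05). Mitf rose by 0.52 and 0.70 in WT and by 1.56 and 1.42 in KO, from 6.03 to 6.24 FPKM in KO SSt and 12.01 to 12.6 in WT SSt. Tfec rose by 0.71 and 0.77 in WT and by 1.33 and 0.62 in KO. Tfe3 did not pass in WT (0.11 and 0.01) and rose in KO by 0.57 and 0.63. Rragd, a Rag GTPase through which nutrients control these factors and itself a known target of them, rose by 3.23 and 3.50 in WT and by 3.39 and 4.36 in KO, from under 1 FPKM in SSt. These are transcript levels and say nothing of where the factors lie in the cell. The list pools the factors with genes that control them, so its counts do not measure how active the factors are.

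The 10 genes with TCACGTGA in the promoter window had a median change in WT of 0.37 log2 in FBS and 0.38 in CMS, against 0.40 and 0.43 for the 74 tested genes whose window lacks it. In KO the medians were 0.57 against 0.49 in FBS and 0.73 against 0.54 in CMS. Of the 10, 9 rose in WT FBS, WT CMS and KO FBS and all 10 in KO CMS, and none fell, beside the 33.7, 34.6, 30.3 and 30.8% of all genes that rose. Of the 74 lysosome genes without it, 51 rose in each WT comparison and 55 in each KO comparison. Those that fell numbered 16 in WT FBS, 11 in WT CMS, 4 in KO FBS and 9 in KO CMS. The 18 genes with CACGTG had medians of 0.59, 0.63, 0.78 and 0.76 in the 4 comparisons, against 0.31, 0.32, 0.47 and 0.48 for the 66 without it. These medians are a description, with no test.

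CMS and FBS gave almost the same lysosome levels in WT. Compared directly, 12 genes were higher and 5 lower in WT CMS than in WT FBS, beside 3.91% and 5.03% of all genes. The median difference was 0.04 log2 and no gene that passed differed by 2-fold. These counts rest on all the libraries: without WT FBS replicate 1, 2 or 3 or WT CMS replicate 3, the genes higher were 5, 6, 7 and 5, and the genes lower fell to 2 or 3 without any WT FBS library or WT CMS replicate 2 or 3. The largest differences were Lipa (0.32 ± 0.05, adjusted p = 0.00592), Ap1s2 (0.27 ± 0.06, adjusted p = 0.0248) and Npc1 (0.27 ± 0.05, adjusted p = 0.0176). Neither Ap1s2 nor Npc1 passed when replicate 1 or 2 of WT FBS or replicate 3 of WT CMS was left out, and Ap1s2 also did not pass when replicate 2 of WT CMS was.

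In KO the 2 treatments differed for more lysosome genes, 24 higher and 9 lower in CMS than in FBS, beside 6.73% and 8.09% of all genes. The number depended on single libraries: it was 32 and 15 without KO FBS replicate 1, and the genes higher were 13, 12, 12 and 11 without KO FBS replicate 2, KO FBS replicate 3, KO CMS replicate 2 and KO CMS replicate 3, while the genes lower were 4 without KO FBS replicate 3 or KO CMS replicate 3. Atp6v0d2 was 2.19-fold higher in KO CMS (adjusted p = 0.00316; 1.96-fold without KO FBS replicate 1), and the 3 libraries of each group did not overlap. Atp6v1h was higher by 0.59 log2, and other pump subunits with it: Atp6v0c by 0.51, Tcirg1 by 0.25, Atp6ap1 by 0.24 and Atp6v0d1 by 0.19, where Atp6ap1 did not pass without any one of 4 libraries and Atp6v0d1 not without any one of 5. In all, 6 of 8 tested pump genes passed as higher. Ctsc was lower by 1.002 ± 0.17 log2 (adjusted p = 0.00705; by 1.16 without KO FBS replicate 1) and Ap1b1 by 0.51 ± 0.09 (adjusted p = 0.00676). Ctsd was higher by 0.51 ± 0.06 (adjusted p = 0.00149). Of the 14 tested macrophage markers, 6 were lower and 0 higher in KO CMS than in KO FBS, Csf1r, Mrc1, C1qa and C1qb among those lower, and their part in these values was not tested.

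Under starvation, 67 of 107 tested lysosome genes were lower and 6 higher in KO than in WT cells, beside 23.2% and 24.2% of all 13317 genes, with a median of -0.24 log2 against 0.02 for all genes. With limma on log2(FPKM + 1) the counts were 51 lower and 13 higher. Slc11a1 was lower by 1.87 ± 0.11 log2, Ctsc by 1.33 ± 0.14, Psap by 1.25 ± 0.05, Gla by 1.08 ± 0.10, Ctsz by 1.04 ± 0.06 and Cd68 by 1.001 ± 0.06, all with adjusted p of 1.96e-06 or less. Ctsk was the protease that was higher, by 0.39 ± 0.05. By class, 35 of 47 hydrolases, 13 of 19 membrane proteins and 7 of 8 pump genes were lower, against 6 of 22 coat genes. Mcpt8l2, a mast cell protease that the KEGG annotation places in the list, had 114, 63 and 69 counts in WT SSt and 0 in every KO library, so it was at least 25.2-fold lower in KO SSt when 3 counts are written for each KO library. Mcpt8l3 is a near copy of it, and reads may be split between them. The summed macrophage markers were also lower, 2379 to 2481 against 3941 to 4082 FPKM, with 10 of 14 tested markers lower and 2 higher, and their part in this difference was not tested. Genotype, culture and any run or batch that separates the WT and KO tables cannot be told apart in this comparison.

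The response to treatment differed by genotype, which was tested as an interaction over the 18 libraries. A difference between WT and KO that is the same in every treatment cancels in it, but a difference confined to the SSt cultures does not. The interaction uses the same SSt libraries as the comparison of KO with WT under starvation, so these results are not independent. For FBS, the response of 44 of 107 genes was lower in WT than in KO and that of 6 higher, beside 18.5% and 17.2% of all genes. For CMS, 54 were lower and 13 higher, beside 21.6% and 23.2%. The medians were -0.15 and -0.21 log2, against 0.01 and 0.05 for all genes. Upper-quartile scaling moved the all-gene median to 0.089 and 0.145 and gave 34 lower and 14 higher for FBS, 45 lower and 20 higher for CMS, and, for KO SSt over WT SSt, 55 lower and 10 higher. The differences relative to that median were -0.17 and -0.25 log2 under both scalings. Scaling shifts all genes by nearly the same amount, so these differences could hardly move and are no check of the calls. Without KO FBS replicate 1 the FBS counts were 44 and 7, and without KO FBS replicate 2 the genes higher were 10.

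Among genes that passed, the largest interactions for FBS, in log2 of the WT response over the KO response, were of Slc11a1 (-2.07 ± 0.15), Ctsc (-1.64 ± 0.19), Slc11a2 (-1.43 ± 0.20) and Atp6v0a1 (-1.25 ± 0.12). For CMS they were of Slc11a1 (-2.42 ± 0.15), Slc11a2 (-1.81 ± 0.20), Sort1 in the other direction (1.55 ± 0.24), Atp6v0a1 (-1.53 ± 0.12) and Atp6v0d2 (-1.49 ± 0.22). For FBS the Sort1 interaction was 0.97 ± 0.23. Without KO FBS replicate 1 the FBS values were -1.92 for Slc11a1, -1.80 for Ctsc, -1.18 for Slc11a2 and 0.74 for Sort1, and all still passed. Litaf, of late endosomes, fell by 0.32 and 0.28 log2 in WT and rose by 0.22 and 0.52 in KO. Of the 104 genes tested in both genotypes, 70 rose in FBS in both, which is 90.9% of the 77 that rose in WT and 87.5% of the 80 that rose in KO. For CMS, 68 rose in both, 88.3% of 77 and 84.0% of 81. Over all 12610 genes tested in both genotypes, those that rose in both were 67.0% of the WT and 73.5% of the KO list in FBS, and 63.2 and 69.9% in CMS. WT and KO share no library. Genes that fell in WT and rose in KO were Ap4s1, Gla, Litaf, Psap, Slc11a2 and Smpd1 in FBS, and Cd63, Gla, Litaf, Slc11a2 and Smpd1 in CMS. Atp6v0a2 and Pla2g15 fell in all 4 comparisons.

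**Figure D5:**
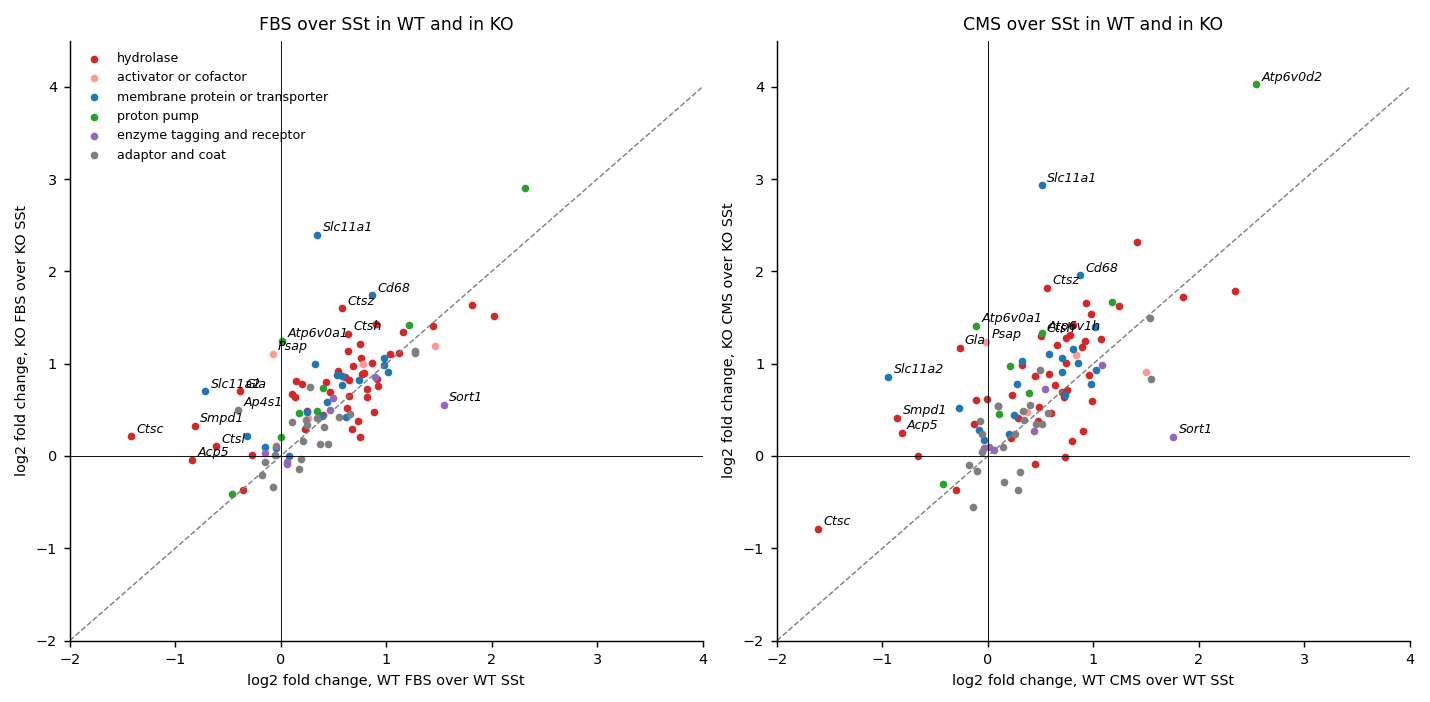
Log2 fold change against SSt of each of 104 lysosome genes in WT (horizontal) and KO (vertical), for FBS (left) and CMS (right), coloured by class, with the line of equal response dashed. Most points lie above the line. Slc11a1, Psap and Atp6v0a1 lie far above it, Slc11a2, Smpd1 and Gla lie in the upper left, and Sort1 lies far below the line.

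The members left untested were those with hardly any reads. Ap3b2, Ap1m2, Abcb9, Lamp3, Dnase2b, Ctsw, Mcpt8l3, Ctse and Atp6v0a4 stayed under 0.41 FPKM in every library, and Psapl1, Ctsg, Ctsm and Ctsj had no count in any. Napsa reached 1.6 FPKM and was tested over the 18 libraries only, Ap1s3 was not tested in WT, and Mcpt8l2 not in KO. The counts above are over the members that were tested and not over all 120.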

How the data were processed

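RNA-seq of 18 libraries was analysed from the tables that the authors deposited, one per genotype. Each holds the unnormalised count of every gene, deposited in whole reads, and the FPKM that the authors computed from it, with a small constant in place of 0, which was set back to 0. For the kit, its strand and the counting tool, details were not given in the sources used here. Bowtie 0.12.2 and the mouse build mm10 stand in the submitters' processing notes, although the tables carry Ensembl identifiers of rat genes; no coordinates of the tables were used. What that difference did to the counts was not tested.

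Genes with at least 1 FPKM in at least 3 libraries were fitted with edgeR 4.0.16 in R 4.3.3 (TMM scaling, quasi-likelihood test, Benjamini-Hochberg adjustment over all genes, threshold 0.05), separately for the 9 WT and the 9 KO libraries, and over all 18 for interactions and KO over WT in SSt. The standard error was derived from the F statistic. The test was tested on simulated data. The depth of 56083000 to 71847969 counts limits precision for genes near 1 FPKM. DESeq2 1.42.0 and limma 3.58.1 on log2(FPKM + 1) were alternatives.

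Classes of members were set by hand from known functions, those of Ctsm, Ctsj, Mcpt8l2, Mcpt8l3 and LOC100909548 after the tables were seen. Named genes are the 2 most abundant of each class, against SSt the 4 genes furthest in each direction past the threshold, per comparison, with no overlap of groups and a mean of at least 1 FPKM, the largest of the other comparisons (4, or 3 for CMS over FBS), well known lysosome genes, and Tfeb, Tfe3, Mitf and Tfec. Others named (among them Lgmn, Ctsa, Ctsh, Ctsf, Tpp1, Gla, Arsb, Asah1, Gm2a, Sumf1, Litaf, Gnptg, Nagpa, Gnptab, Gga2, Atp6v1a and Rragd) were chosen after their values were seen. The members, lists and tests were chosen with earlier results of these data known. Replicate numbers were not taken as pairs. Some members enter the counts and medians but are not reported here by name.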

Additional observations from a re-analysis of the deposited data

Results flagged for a closer look

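The response of named lysosome genes differed between WT and KO by edgeR's interaction test, with an adjusted p under 0.05 over all genes. Each value is the log2 response against SSt in WT minus that in KO. For FBS, the response was lower in WT for Slc11a1 (-2.07), Ctsc (-1.64), Slc11a2 (-1.43), Atp6v0a1 (-1.25), Psap (-1.20), Smpd1 (-1.15), Ctsz (-1.03), Cd68 (-0.89), Acp5 (-0.81), Ctsl (-0.73), Atp6v0d2 (-0.60), Ctsb (-0.40), Ctss (-0.38), Lamp2 (-0.36), Atp6v1h (-0.35), Atp6v0c (-0.30), Gaa (-0.30), Scarb2 (-0.30), Fuca1 (-0.27), Cd63 (-0.25), Npc2 (-0.23), Atp6ap1 (-0.22), Tcirg1 (-0.21), Dnase2 (-0.18) and Atp6v0d1 (-0.16). It was higher in WT for Ap1b1 (0.30), Ctsk (0.37) and Sort1 (0.97). Nearest the threshold by edgeR's test were Dnase2 (adjusted p = 0.0476), Atp6v0d2 (0.0434), Ap1b1 (0.0368), Atp6v0d1 (0.0363) and Ctss (0.0356).

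For CMS, the response was lower in WT for Slc11a1 (-2.42), Slc11a2 (-1.81), Atp6v0a1 (-1.53), Atp6v0d2 (-1.49), Smpd1 (-1.28), Ctsz (-1.27), Psap (-1.26), Cd68 (-1.09), Acp5 (-1.07), Ctsc (-0.83), Atp6v1h (-0.82), Atp6v0c (-0.77), Ctsl (-0.67), Ctsb (-0.55), Gaa (-0.54), Lamp2 (-0.53), Mcoln1 (-0.51), Tcirg1 (-0.49), Ctsd (-0.39), Cd63 (-0.38), Npc1 (-0.37), Atp6ap1 (-0.35), Scarb2 (-0.35), Fuca1 (-0.31), Atp6v0d1 (-0.29), Dnase2 (-0.26), Npc2 (-0.26) and Lamp1 (-0.16). It was higher in WT for Ppt1 (0.39), Ctsk (0.54), Lipa (0.55), Ap1b1 (0.65), Ap1s2 (0.70) and Sort1 (1.55). Of these, Lipa was nearest the threshold (adjusted p = 0.0387, edgeR). The FBS and CMS values share the SSt libraries of both genotypes.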

How the results depend on the processing

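No lysosome gene named by the fixed rules changed direction in a comparison where it passed in the main fit or under the alternative. Of the calls of these genes under alternatives, 7159 stayed the same, 289 no longer passed and 128 newly passed. Genes named after their values were seen, the MiT/TFE factors and the cell type markers were not part of this check. Values that passed in neither could change sign near 0, such as Acp5 in KO FBS over SSt, at -0.04 and, without KO FBS replicate 1, 0.045. Of the counts of lysosome genes, 256 stayed within 1.5 times the reported count and 50 did not. Requiring a fold of at least 2 left 13 higher and 2 lower in WT FBS over SSt, 14 and 1 in WT CMS, 23 and 0 in KO FBS, 31 and 0 in KO CMS, 0 and 0 in WT CMS over FBS, 1 and 1 in KO CMS over FBS, 0 and 8 for the FBS interaction, 1 and 10 for the CMS interaction, and 0 and 7 for KO over WT in SSt. For WT CMS over FBS the genes lower were 3 with no filter and 9 with DESeq2. For KO CMS over FBS, fitting only those 2 groups gave 13 higher and 4 lower. Upper-quartile scaling gave 14, 20 and 10 genes higher for the FBS interaction, the CMS interaction and KO over WT in SSt, and limma gave 17, 24 and 13 with a pseudocount of 1 and 17, 24 and 14 with 0.1, with 31, 40 and 51 genes lower with a pseudocount of 1 and 30, 40 and 52 with 0.1 in place of 44, 54 and 67. The cause of these shifts was not tested.

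Leaving out 1 library at a time gave 5 to 10 higher and 2 to 4 lower in WT CMS over FBS, 11 to 32 and 4 to 15 in KO CMS over FBS, 5 to 7 lower in KO CMS over SSt, and 4 to 10 higher for the FBS interaction. Same-numbered replicates had correlations of deviations between -0.239 and 0.133, so the numbers were not taken to pair the samples. With the replicate number as a block, the genes lower in KO CMS over FBS were 4 in place of 9, and no other count moved by over 1.5 times.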
